A study of Mus musculus with 4 samples.

Results

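The genes described here are 10 early response genes of the EGR, NR4A, KLF and IER families, Egr1, Egr2, Egr3, Nr4a1, Klf2, Klf4, Klf6, Ier2, Ier3 and Ier5, taken by their symbols from the 24411 gene symbols counted in every library. Of the 10, 9 had at least 1 read and 6 passed the filter on low counts (Egr3, Nr4a1, Klf6, Ier2, Ier3 and Ier5), against 12982 and 9992 of all genes. The cells were BV2, a mouse line of immortalised microglia (the macrophages of the brain), labelled as a CRISPR-Cas9 knockout of Pu.1, an ETS transcription factor that is the product of Spi1, and their total RNA was sequenced after depletion of ribosomal RNA. The groups were 2 libraries of knockout cells treated with LPS, the bacterial cell wall component sensed by the receptor TLR4, at 10 ng/ml, and 2 libraries of untreated knockout cells. For the exposure the labels disagree, with 2 h in one field (the source name) and 4 h in another (the title). Both groups carry the knockout label, and with no wild-type library among those used here the data hold no contrast of genotype. The labels say neither whether the line is a single clone nor whether the libraries came from separate cultures, so p-values measure only the spread between these libraries, which may be technical.

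EGR proteins are zinc finger factors and NR4A proteins are orphan nuclear receptors, and the genes of both families are switched on by growth factor, calcium and stress signals within minutes, before any new protein is made. Their transcription is classically driven through the ERK kinase cascade, serum response factor (SRF) with its ETS partners, and the cyclic AMP response element binding protein. KLF proteins are zinc finger factors that bind GC-rich DNA, and in macrophages KLF2 and KLF4 are known to restrain inflammatory gene expression while KLF6 has been linked to inflammatory activation. The IER (immediate early response) genes encode small proteins, of which IER3 is known as a survival and stress regulator induced through NF-kB.

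Gene counts totalled 3256197 and 3749159 in the LPS libraries and 4502105 and 4115011 in the untreated libraries. Levels are in CPM, for which counts were divided by library sizes adjusted with TMM factors, a scaling that assumes that most genes do not change. Spi1 reads were present throughout, 745 and 958 after LPS and 844 and 743 untreated, which shows transcript and does not show the edit. After scaling, Spi1 was at 258 and 291 CPM after LPS and 161 and 164 CPM untreated, and edgeR called it higher (log2 fold change 0.75). All 12 macrophage and microglia markers in the table had reads, and they summed to 2859 and 3029 CPM after LPS, against 2078 and 2168 CPM untreated. Of the 6 that were looked at singly, edgeR called Itgam (log2 fold change 2.20), Ptprc (1.39), Aif1 (1.2) and Tyrobp (0.53) higher after LPS and Csf1r (-0.21) lower, and Cd68 (-0.15) did not pass. Aif1, a defining microglial marker, had only 12 and 10 reads after LPS and 9 and 6 untreated. All neuron and epithelial markers listed were at 0 in every library, and the summed fibroblast markers lay between 0.304 and 0.693 CPM after LPS and at 0 CPM untreated. The summed endothelial markers were at 49.9 and 34.0 CPM after LPS, against 22.8 and 23.2 CPM untreated, with 3 of 6 markers counted. The part of these markers, macrophage and endothelial, in the results below was not tested.

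Among the 6 early genes tested, 3 rose after LPS (Ier3, Klf6 and Ier5), 2 fell (Egr3 and Nr4a1) and Ier2 did not pass the test. A call means a Benjamini-Hochberg adjusted p below 0.05 over all 9992 genes tested with edgeR's quasi-likelihood test. Of all genes tested, 51.9% were called, 26.6% higher and 25.3% lower after LPS, and with 6 genes tested nothing particular to them is read from these counts. With libraries scaled by size alone, 2 early genes were higher and 3 lower, and all genes split into 1379 higher and 4778 lower, against 2659 higher and 2527 lower in the reported fit. In RNA from a whole culture, a change in the number of responding cells and a change in RNA per cell cannot be told apart.

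The proximal promoters of the largest riser and of Nr4a1, the faller with an entry in the promoter table used here, are shown because the genes moved in opposite directions, and to place the motif matches given after them. Each line gives the 250 bases before the RefSeq start site on the plus strand of GRCm38.p6, 5′ to 3′. Ier3 lies at chr17:35821463-35821712, where capitals mark a match to the NF-kB site on the minus strand. Nr4a1 lies at chr15:101266596-101266845, where capitals mark the core TGACG of the cyclic AMP response element, read on the minus strand as CGTCA.
Ier3: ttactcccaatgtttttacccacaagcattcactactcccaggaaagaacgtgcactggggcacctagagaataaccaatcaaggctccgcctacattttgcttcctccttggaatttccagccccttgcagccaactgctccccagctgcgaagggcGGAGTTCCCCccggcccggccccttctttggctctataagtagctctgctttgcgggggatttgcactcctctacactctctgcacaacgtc
Nr4a1: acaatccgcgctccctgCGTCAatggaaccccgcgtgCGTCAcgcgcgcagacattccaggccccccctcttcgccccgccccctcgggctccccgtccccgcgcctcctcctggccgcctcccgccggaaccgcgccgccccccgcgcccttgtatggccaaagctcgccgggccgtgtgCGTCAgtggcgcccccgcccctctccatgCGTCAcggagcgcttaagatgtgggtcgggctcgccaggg

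Of the 10 early genes, 7 were matched in the RefSeq promoter table used here (Egr2 with 5 start sites, Nr4a1, Klf2, Klf4, Klf6, Ier3 and Ier5), and the windows searched were 300 bases, from 250 before to 50 after the start, on both strands. The Ier3 NF-kB match lay 92 to 83 bases before the start and shares bases with a GC box match (GGGCGG) at 96 to 91 bases before it. NF-kB matches were found in 4.51% of the 32851 promoters of this length and in 2 of the 11 early gene promoters, Ier3 and Nr4a1, the second of them across the start site. The Nr4a1 window held 4 TGACG matches, a number reached by 76 of the 32851 promoters (0.231%). That cutoff was set by Nr4a1 itself and the promoters were not matched for GC content, so no rarity is read from the share. At least 1 such match was found in 20.8% of all promoters and in 6 of the 11 early gene windows. These were the windows of Nr4a1, Klf2 and Klf4 and 3 overlapping windows of Egr2 that hold the same sites. None of the 11 windows held the full palindrome TGACGTCA, which 1.79% of all promoters hold, the AP-1 letters TGANTCA (7.81%) or the TATA letters TATAAA (13.6%). The CArG box, the SRF site, was matched in 4 of the 5 Egr2 windows, 3 of which share the same site, and in no other early gene, against 1.63% of all promoters. The GC box was matched in 8 of the 11 windows (35.7% of all promoters), the EGR letters GCGNGGGCG in the windows of Nr4a1, Klf2 and Klf4 (5.55%), and the ETS letters CCGGAA in those of Nr4a1 and 1 of Egr2 (14.9%). These matches describe letters only, and no binding was measured.

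Egr1, the prototype EGR factor, was listed at 0 reads in all 4 libraries and on both strands. A count of 0 allows up to 3 reads, which is 1.04 and 0.911 CPM in the LPS libraries and 0.574 and 0.663 CPM in the untreated libraries. The gene listed before it, Reep2, had 0 and 2 reads after LPS and 0 and 1 untreated. The gene listed after it, Etf1, had 1243 and 1322 reads after LPS and 1819 and 1447 untreated. Of widely expressed genes chosen after the Egr1 row was seen, such as Actb and Gapdh, 12 of 12 had reads in every library. Neither the neighbours nor these genes can show whether Egr1 was transcribed. Reads that overlap more than 1 annotated gene are left out of such counts. They made up 0.295% and 0.336% of uniquely placed reads in the LPS libraries and 0.432% and 0.426% in the untreated libraries, and whether any came from Egr1 was not tested.

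Egr2, an EGR factor of myeloid and Schwann cell differentiation, had 8 and 5 reads after LPS and 6 and 9 untreated, too few for the test. Its levels were 2.77 and 1.52 CPM after LPS and 1.15 and 1.99 CPM untreated, and the groups overlapped. The ratio of LPS to untreated reads was 1.37, with a 95% exact counting interval from 0.599 to 3.08. A change of Egr2 was not detectable at this depth.

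Egr3, an EGR factor that is itself a target of EGR1 in other cells, fell. It had 1 and 2 reads after LPS and 36 and 26 untreated, or 0.347 and 0.607 CPM after LPS and 6.88 and 5.75 CPM untreated. Both LPS libraries lay far below both untreated libraries. Its fitted log2 fold change stood at -3.63, with SE 0.58 and an edgeR adjusted p of 6.73e-07. The LPS libraries held 3 reads together, so the ratio of 0.0763 has a wide counting interval, from 0.0153 to 0.234.

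Nr4a1, which encodes the orphan receptor NUR77, a brake on inflammatory genes in macrophages, also fell. It had 4 and 10 reads after LPS and 40 and 54 untreated, or 1.39 and 3.04 CPM after LPS and 7.65 and 11.9 CPM untreated. The groups did not overlap, although replicate 2 was the higher library in both. The mean was 2.21 ± 1.17 CPM after LPS and 9.80 ± 3.04 CPM untreated (SD, n = 2 each). On the log2 scale the fitted change was -2.08, with SE 0.39 and an edgeR adjusted p of 1.30e-05. Without LPS replicate 2 the log2 fold change was -2.77 and without LPS replicate 1 it was -1.66, both still called.

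Among the KLF genes described here (Klf2, Klf4 and Klf6), Klf6 was the most abundant by far and rose. It had 572 and 567 reads after LPS and 268 and 262 untreated, or 198 and 172 CPM after LPS and 51.3 and 57.9 CPM untreated. The groups stood well apart, and the mean of 185 ± 18.4 CPM after LPS against 54.6 ± 4.73 CPM untreated (SD, n = 2 each) gave a 3.39-fold rise (1.76 on the log2 scale, SE 0.11, edgeR adjusted p = 1.66e-19). Klf2, a factor of endothelial and monocyte quiescence, had 5 and 2 reads after LPS and 4 and 2 untreated, a ratio of 1.84 with a counting interval from 0.530 to 6.63. Klf4, a monocyte differentiation and pluripotency factor, had 1 and 2 reads after LPS and 7 and 3 untreated, a ratio of 0.473 with a counting interval from 0.0837 to 1.84. Neither gene passed the filter for the test, and both intervals include no change.

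Of the 3 IER genes, Ier3 and Ier5 rose and Ier2 did not pass. Ier3 had 283 and 315 reads after LPS and 36 and 24 untreated, or 98.1 and 95.6 CPM after LPS and 6.88 and 5.31 CPM untreated. Both LPS libraries lay above both untreated libraries by more than an order of magnitude. The mean was 96.9 ± 1.73 CPM after LPS and 6.10 ± 1.12 CPM untreated (SD, n = 2 each), a 15.7-fold rise (3.97 on the log2 scale, SE 0.16, edgeR adjusted p = 3.96e-26).

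Ier5, which has been tied to the heat shock and growth arrest responses, had 39 and 49 reads after LPS and 36 and 40 untreated. After scaling these were 13.5 and 14.9 CPM after LPS and 6.88 and 8.85 CPM untreated, so the groups did not overlap in CPM while the raw counts nearly coincided. This was a 1.82-fold rise (0.86 on the log2 scale, SE 0.25, 95% interval 0.36 to 1.36, edgeR adjusted p = 0.00305). Ier5 missed the threshold under DESeq2 (adjusted p = 0.120), under edgeR with libraries scaled by size alone (log2 fold change 0.51, adjusted p = 0.0737) and without untreated replicate 1 (0.68, edgeR adjusted p = 0.0711).

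Ier2, a growth factor response gene of the nucleus and cytoplasm, had 84 and 113 reads after LPS and 169 and 175 untreated. Its levels of 29.1 and 34.3 CPM after LPS and 32.3 and 38.7 CPM untreated overlapped. The change of -0.15 on the log2 scale (SE 0.15, edgeR adjusted p = 0.416) did not pass, and its 95% interval ran from -0.46 to 0.15. Its sign rests on the correction applied. When libraries were scaled only by their size the value was -0.51 (edgeR adjusted p = 0.00267), a scaling that moved the median of all genes to -0.36. With offsets corrected for GC content it was 0.30 (edgeR adjusted p = 0.0890). Ier2 transcripts hold 60.9% GC, in the fifth of genes from 55.2% to 72.5% GC, whose median log2 fold change was -0.31. Klf6, at 42.4% GC, lies in the fifth from 29.6% to 43.6%, whose median was 0.28, and its log2 fold change was 1.5 after the correction, against 1.76 before it.

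**Figure D1:**
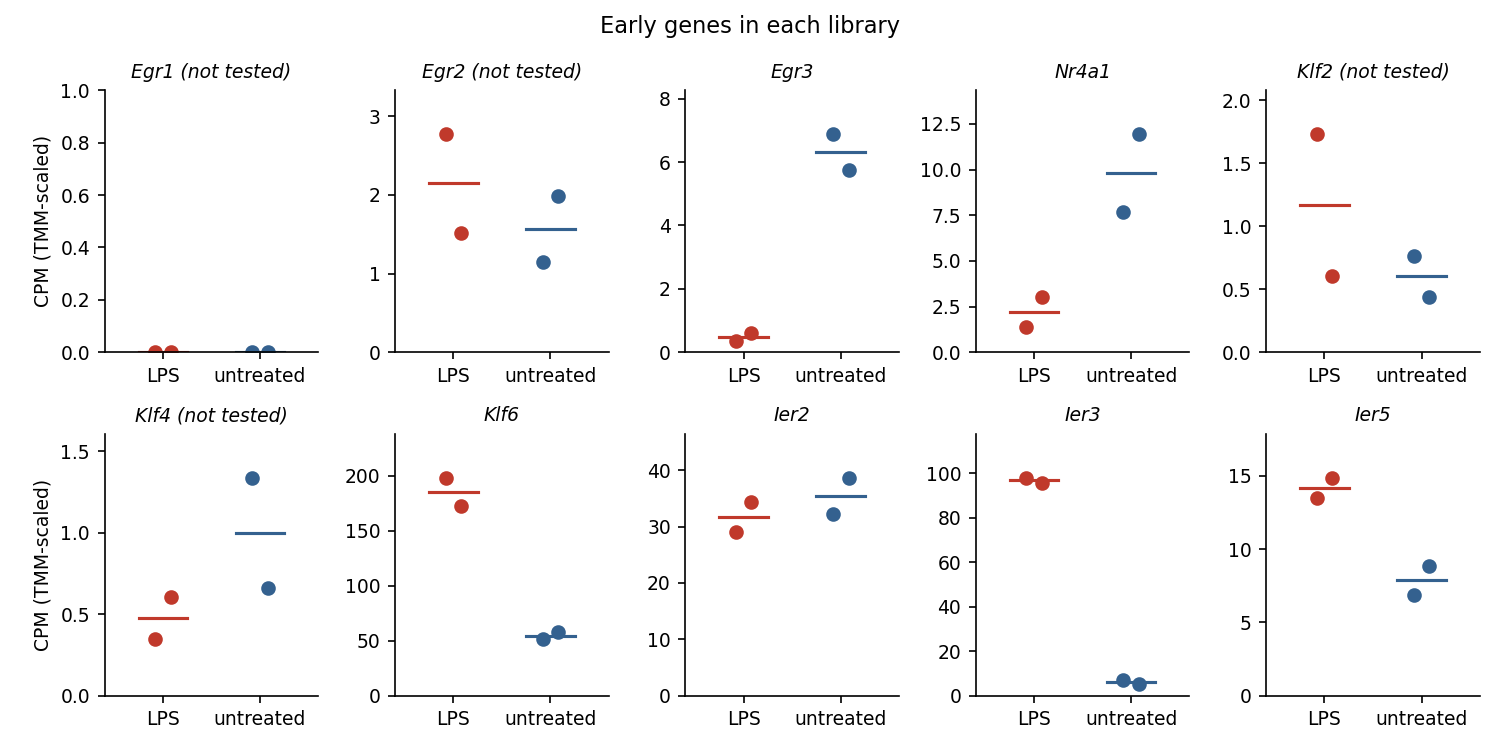
TMM-scaled CPM of the 10 early genes in each library, with LPS libraries in red on the left and untreated libraries in blue on the right of each panel, dots for libraries and bars for the mean of 2, on a separate linear axis from 0 for each gene. Klf6, Ier3 and Ier5 lie higher after LPS, Egr3 and Nr4a1 lower, Ier2 overlaps, and Egr1 is at 0 throughout.

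**Figure D2:**
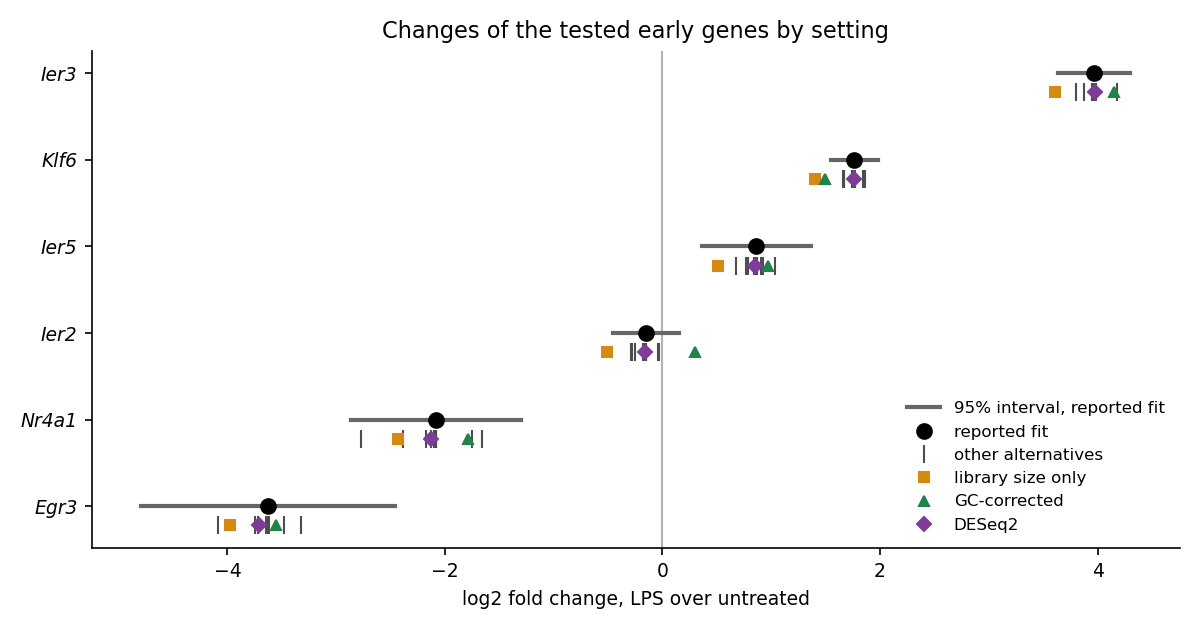
Log2 fold change, LPS over untreated, of the 6 tested early genes: black dots and grey bars give the reported fit with its 95% interval, and the marks below each give the 14 alternatives. Ier3, Klf6, Nr4a1 and Egr3 keep their side of 0 and their call in every alternative, while Ier2 lies on both sides of 0.

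Ratios between early genes within a library do not depend on how libraries are scaled. For each Ier2 read there were 3.37 and 2.79 Ier3 reads in the LPS libraries, against 0.213 and 0.137 in the untreated libraries. For each Ier2 read there were 6.81 and 5.02 Klf6 reads after LPS, against 1.59 and 1.5 untreated. For each Ier5 read there were 2.15 and 2.31 Ier2 reads after LPS, against 4.69 and 4.38 untreated. Ier3 and Klf6 thus gained on Ier2, and Ier2 lost ground to Ier5, whatever the scaling of libraries. Such ratios do not remove shifts that follow GC content. With GC-corrected offsets the log2 fold changes were 1.5 for Klf6 and 0.30 for Ier2, against 1.76 and -0.15 in the reported fit. Nr4a1 reads per Ier5 read were 0.103 and 0.204 after LPS, against 1.11 and 1.35 untreated. Ier3 also gained on Klf6, with 0.495 and 0.556 reads per Klf6 read after LPS, against 0.134 and 0.0916 untreated. No ratio overlapped between the groups. Each pair was chosen by hand and holds a gene already called, and the share of all gene pairs that separate was not computed. The exact two-sided permutation test gave p = 0.333 for each of the 8 ratios computed. That is the smallest p that 2 against 2 libraries allow, so this test could not pass a threshold of 0.05.

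The order of the early genes changed between the groups when levels were set per kilobase of exon, with merged exon lengths from GENCODE vM21. In LPS libraries Ier3 came first at 85.6 ± 1.53 CPM per kilobase, then Klf6 at 43.8 ± 4.37, Ier2 at 20.8 ± 2.41 and Ier5 at 4.33 ± 0.294 (SD, n = 2). In untreated libraries Ier2 came first at 23.3 ± 2.97 CPM per kilobase, then Klf6 at 12.9 ± 1.12, Ier3 at 5.39 ± 0.986, Nr4a1 at 3.66 ± 1.13, Ier5 at 2.40 ± 0.423 and Egr3 at 1.54 ± 0.195 (SD, n = 2). Ier3 and Nr4a1 differed there by less than the sum of their SDs, and so did Nr4a1 and Ier5. Each early gene not named for a group stayed below 1 CPM per kilobase on average in that group. Among these low levels, Nr4a1, Egr2 and Klf2 overlapped after LPS, as did Klf4 and Egr3, and Egr2, Klf4 and Klf2 overlapped in untreated libraries.

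**Figure D3:**
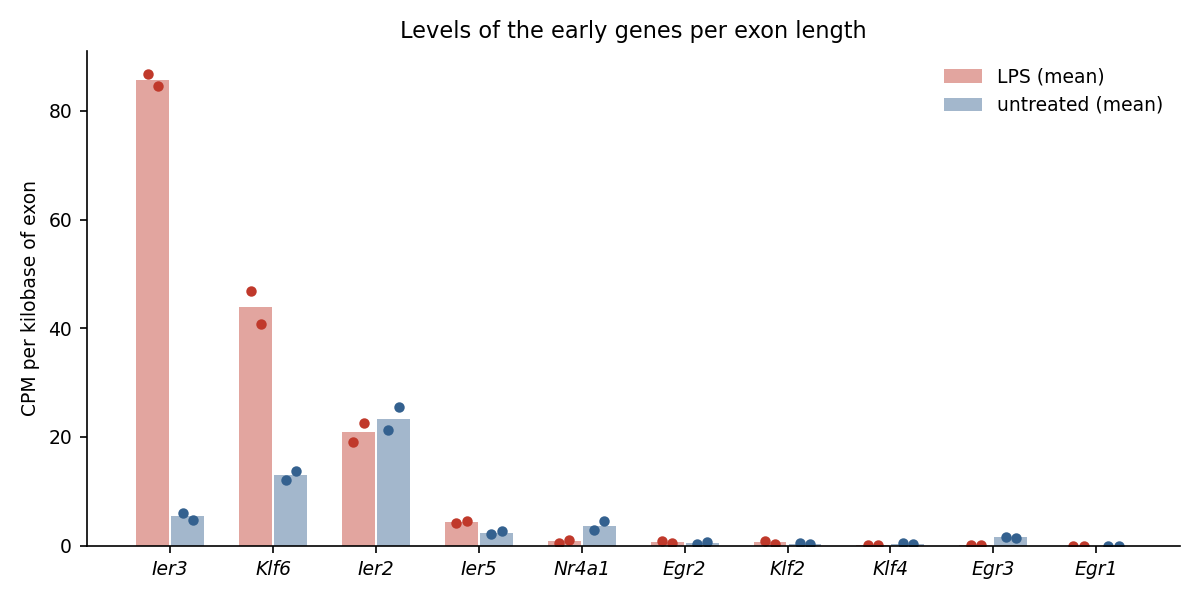
CPM per kilobase of merged exon for the 10 early genes, ordered by the LPS mean, with LPS in red on the left and untreated in blue on the right of each pair, bars for means and dots for the 2 libraries. Ier3 and Klf6 lead after LPS, and Ier2 leads in untreated libraries.

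Of 18 further members of the same families, 9 passed the filter, and by the edgeR test 3 of these fell and 0 rose, beside 25.3% and 26.6% of all genes, and their median was -0.40 on the log2 scale, against 0.000629 over all genes tested. At an unadjusted p below 0.05, 1 was higher, with DESeq2 0 were higher and 2 lower, with GC-corrected offsets 1 was higher and 3 lower, and with libraries scaled by size alone 5 were lower. Ier5l, the closest relative of Ier5, had 3 and 1 reads after LPS and 34 and 19 untreated (log2 fold change -3.01, SE 0.58, edgeR adjusted p = 2.03e-05), against a rise of Ier5. The Ier5l log2 fold change was -4.04 without LPS replicate 1 and -2.35 without LPS replicate 2, both still called. Klf16, a repressor of the KLF family, was at 17.3 ± 2.96 CPM after LPS and 35.2 ± 1.90 CPM untreated (log2 fold change -1.01, SE 0.17). With GC-corrected offsets the log2 fold change was -0.58 for Klf16 and -2.48 for Ier5l, both still called. Klf9, a glucocorticoid-responsive KLF, had a log2 fold change of -0.67 (SE 0.26), and it missed the threshold under DESeq2 (adjusted p = 0.278) and, with edgeR, without LPS replicate 2 (adjusted p = 0.0959) or untreated replicate 1 (adjusted p = 0.289). Nr4a2, with 5 and 10 reads after LPS and 23 and 16 untreated (log2 fold change -0.71), did not pass, and neither did Klf3 (0.03), Klf7 (0.91), Klf10 (-0.25), Klf11 (-0.40) or Klf13 (0.15). Egr4, Nr4a3 and Klf1 had between 2 and 8 reads over the 4 libraries, and Klf5, Klf8, Klf12, Klf14, Klf15 and Klf17 had none.

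Of the partners of EGR and NR4A proteins, 9 were tested, and 3 rose and 5 fell, beside 26.6% and 25.3% of all genes. The counts were 2 higher and 6 lower with libraries scaled by size alone, 2 and 3 with DESeq2, and 3 and 3 without untreated replicate 1. Nab1 and Nab2, the corepressors that bind EGR proteins, both rose. Nab1 was at 163 ± 2.62 CPM after LPS and 82.0 ± 5.94 CPM untreated (log2 fold change 0.99, SE 0.10), and Nab2 was at 54.1 ± 8.44 CPM after LPS and 29.7 ± 0.151 CPM untreated (0.87, SE 0.14). Rxra and Rxrb, which encode retinoid X receptors with which NR4A1 can pair, fell, and Rxrg, the other gene of that family, had 0 reads. Rxra had 138 and 184 reads after LPS and 1264 and 1078 untreated (log2 fold change -2.21, SE 0.11, edgeR adjusted p = 1.87e-23), and Rxrb was at 66.7 ± 3.61 CPM after LPS and 117 ± 2.61 CPM untreated (-0.81, SE 0.11). With GC-corrected offsets the log2 fold changes were 0.89 for Nab1, 1.29 for Nab2, -1.91 for Rxra and -0.34 for Rxrb, all still called. The list's median log2 fold change was -0.59.

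Genes of the pathways upstream of early genes gave calls in both directions. Of 6 tested genes of SRF and its cofactors, 0 rose and 1 fell by the edgeR test, beside 26.6% and 25.3% of all genes, with a median log2 fold change of 0.12. At an unadjusted p below 0.05, 0 were higher, with DESeq2 0 were higher and 0 lower, and with GC-corrected offsets 1 was higher and 1 lower. Without untreated replicate 1, 1 was higher and 0 lower, and 2 were lower without LPS replicate 1 and with libraries scaled by size alone. The faller was Mkl1, an actin-sensing SRF coactivator (log2 fold change -1.05, SE 0.28), which missed the threshold under DESeq2 (adjusted p = 0.0582) and, with edgeR, without untreated replicate 1 (adjusted p = 0.0757). Of 14 ERK cascade genes, 4 rose and 4 fell, with a median of 0.09, and these counts are near the shares of all genes (26.6% and 25.3%). Map3k8, which encodes the kinase TPL2 that links TLR4 to ERK, was at 43.8 ± 1.8 CPM after LPS and 7.01 ± 0.719 CPM untreated (log2 fold change 2.64, SE 0.19). Map2k1 (0.95) and Rps6ka3 (0.93) were among the risers on the log2 scale and Map2k2 (-0.73) among the fallers. With GC-corrected offsets the values were 1.02 for Map2k1, 0.61 for Rps6ka3 and -0.30 for Map2k2, all still called. The transcripts of the cascade say nothing of its activity.

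Of 10 tested genes of ERK feedback and output, 5 rose and 1 fell, beside 26.6% and 25.3% of all genes, and their median was 0.35 on the log2 scale. The counts were 3 higher and 2 lower with libraries scaled by size alone, and 3 and 1 with DESeq2. Dusp4, an ERK phosphatase, was at 96.1 ± 13.1 CPM after LPS and 22.2 ± 0.184 CPM untreated (log2 fold change 2.10, SE 0.13). Spred1, an inhibitor of RAS signalling, rose with a log2 fold change of 0.77 (SE 0.10), and Etv5, an ETS factor, fell with -0.83 (SE 0.14). With GC-corrected offsets the values were 0.47 for Spred1 and -0.74 for Etv5, both still called. Myc had 18 and 14 reads after LPS and 1 and 4 untreated (log2 fold change 3.26, SE 0.57), and its log2 fold change was 4.54 without untreated replicate 2 and 2.5 without untreated replicate 1, both still called.

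Of 26 tested other immediate early genes, 18 rose and 4 fell, with a median log2 fold change of 1.06, beside 26.6% and 25.3% of all genes. The counts were 14 higher and 2 lower with DESeq2, and 14 and 5 with libraries scaled by size alone. The 4 with the smallest p were Tnfaip3 (log2 fold change 4.98), Ptgs2 (3.94), Nfkbia (3.00) and Atf3 (2.51), of which Tnfaip3 and Nfkbia are NF-kB feedback genes. The fallers were Zfp36l1 (-1.27), Plk3 (-0.95), Trib1 (-0.83) and Zfp36l2 (-0.61), and Fos (0.27) did not pass. Of 8 tested cytoskeletal targets of SRF, 4 rose and 2 fell, with a median of 0.54, beside 26.6% and 25.3% of all genes. Only 1 was lower with DESeq2, with GC-corrected offsets, without LPS replicate 2 and without untreated replicate 2. Tpm4, a tropomyosin, was at 633 ± 1.91 CPM after LPS and 109 ± 9.99 CPM untreated (log2 fold change 2.54, SE 0.09). Vcl (1.49), Tpm1 (0.97) and Flna (0.67) rose as well, while the actin genes Actg1 (-1.02) and Acta2 (-1.53) fell. The actin gene Actb, at 4587 CPM after LPS and 5119 CPM untreated on average, did not pass (-0.16). Actg1 was at 105 and 89.6 CPM after LPS, and its untreated libraries lay apart at 233 and 160 CPM. Acta2 had only 4 and 4 reads after LPS and 19 and 18 untreated.

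**Figure D4:**
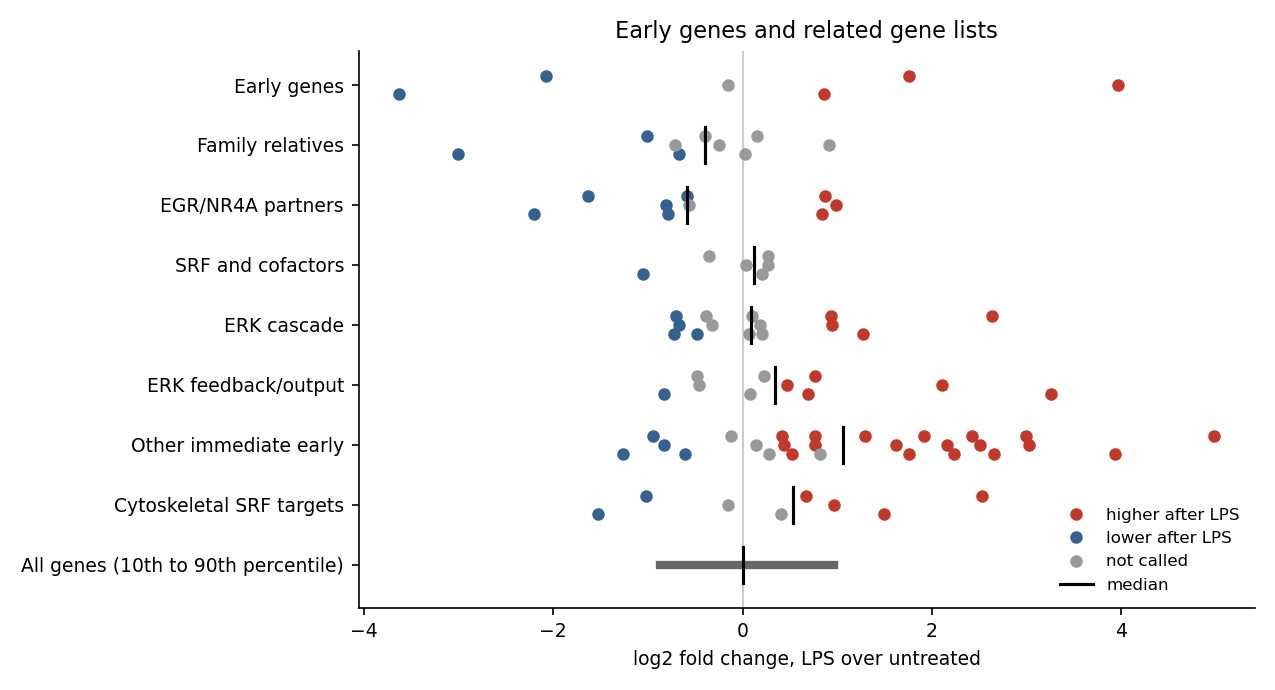
Log2 fold change, LPS over untreated, of the tested early genes and of 7 related gene lists, each dot a gene coloured by its edgeR call, with list medians as black bars and the 10th to 90th percentile of all 9992 tested genes (-0.87 to 0.97) as a grey bar. The early genes reach from Egr3 at -3.63 to Ier3 at 3.97.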

How the data were processed

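The authors deposited raw, unnormalised read counts for each gene, unstranded and by strand, laid out as STAR writes them. CASAVA 1.8.2, Trimmomatic 0.33, STAR 2.5.1 and DESeq2 are named per the submitters' processing notes, with the human build hg19, and the labels' extraction protocol speaks of hMSCs, both in conflict with the mouse symbols and the BV2 labels; for the annotation, no name is given in the sources used here. The library protocol is strand-specific per the labels, and reverse-strand counts were used, which exceeded forward-strand counts 78.7 to 95.3 times. Summary lines stayed out. Reads in no feature made up 59.1% and 57.4% of uniquely placed reads in the LPS libraries, against 53.0% and 51.8% in the untreated libraries. The part of this difference in the results was not tested. Genes passing edgeR's expression filter were tested with edgeR 4.0.16 (TMM, robust quasi-likelihood, two-sided, treatment only) in R 4.3.3. SE was approximated from the log2 fold change and the quasi-likelihood F (their ratio, with F under a root). Intervals on read ratios and the limit of 3 reads cover counting error only. Libraries of a pair differed beyond sampling (chi-square per degree of freedom 2.92 after LPS, 4.63 untreated) and were kept separate. The fit was tested on simulated data with balanced changes in well-counted genes only, which says nothing of genes with few reads.

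The members and lists were chosen with earlier results of these data known. All 10 members are named, all family relatives, and up to 4 called genes per list by smallest p. Fos, Actb and the fallers of the immediate early and cytoskeletal lists were added to these. GC content came from each symbol's longest transcript in GENCODE vM21 (96.6% of tested genes matched). Promoters are RefSeq's (GRCm38.p6), matched by symbol. There were 14 alternatives, namely RLE, upper-quartile and size-only scaling, DESeq2 1.42.0, a filter of 1 count or of 1 CPM in 2 libraries, counts without strand, a replicate block, GC-corrected offsets, a fit without 5 abundant entries and leaving out each library. The comparison of protein sequences was not made.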

Additional observations from a re-analysis of the deposited data

Results flagged for a closer look

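Klf6 had reads on the strand opposite to the gene in the LPS libraries, 3 and 8 reads or 11 together, and 0 reads in both untreated libraries. These data lie outside the counts used for the comparison. The 11 reads are 0.957% of the stranded Klf6 reads after LPS, a pooled value given without an interval. A count of 0 among the 530 untreated reads allows up to 0.566%. Whether the groups differ in this share was not tested. Over all genes the opposite strand held 1.04% and 1.26% of stranded gene counts in the LPS libraries and 1.16% and 1.09% in the untreated libraries. The source of the Klf6 reads was not tested.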

How the results depend on the processing

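Over 84 recomputed values of the 6 tested early genes, 79 kept their direction and side of the threshold, 3 lost a call (all of Ier5), 1 gained one and 1 turned sign (both Ier2). The Ier2 log2 fold change was 0.30 with GC-corrected offsets. Ier3 ranged from 3.61 to 4.18, Klf6 from 1.41 to 1.86, Nr4a1 from -2.77 to -1.66 and Egr3 from -4.08 to -3.33, with edgeR or DESeq2 adjusted p of at most 0.00567. All genes split into 1379 higher and 4778 lower with scaling by library size alone and into 1760 and 1405 with DESeq2, which called 13 related genes lower, against 20 in the reported fit. Leaving out each library in turn gave 2 to 3 early genes higher and 2 lower, with 2114 to 2547 of all genes higher and 1949 to 2370 lower; the lone library of a group is then assumed to vary like the other group. With the replicate block 3 early genes were higher and 2 lower, and 2658 and 2513 of all genes. Deviations of same-numbered libraries correlated at -0.0435, which does not settle whether the numbers pair the libraries. With filters dropped, Egr2, Klf2 and Klf4 could be tested and 0 passed, also at an unadjusted p (edgeR adjusted p = 0.620, 0.535 and 0.489), nor with DESeq2 (adjusted p = 0.807, 0.708 and 0.697). Depth limits Egr2, Klf2, Klf4 and the LPS level of Egr3.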
